A study of Homo sapiens with 6 samples.

Results

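The genes described here are 55 components of the bone morphogenetic protein (BMP) and transforming growth factor beta (TGF-beta) pathways, chosen by symbol from ligands to nuclear targets. All 55 were found among the 35793 genes of the deposited table of normalized counts. They were measured by bulk RNA-seq in cardiomyocytes differentiated from WTC11, an established human induced pluripotent stem cell line. Wild-type cells, with no added treatment, were set against an isogenic line made homozygous for a CRISPR/Cas9 knockout of STK25, a serine/threonine kinase, with 3 biological replicates per genotype taken on day 15 of differentiation. Each genotype is represented by 1 cell line, so the genotype and the history of that line cannot be told apart. Genome positions below are GENCODE 29 gene bounds on GRCh38.

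BMP, TGF-beta, activin and nodal ligands are secreted dimers that bring together type I and type II receptor kinases. BMP-branch receptors mainly phosphorylate SMAD1, SMAD5 and SMAD9, while TGF-beta and activin receptors phosphorylate SMAD2 and SMAD3, and both groups of SMADs enter the nucleus with SMAD4. Ligand access is limited outside the cell by binding proteins such as noggin, follistatin and the LEFTY proteins, and by latent TGF-beta binding proteins, which anchor the inactive TGF-beta complex in the matrix. In the developing heart these signals take part in the specification of cardiac progenitors, left-right patterning, valve formation and growth of the chamber wall.

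Promoters are shown for 4 genes whose values differed between genotypes and that carry the contrast: a BMP ligand that was higher in the knockout (BMP4), an activin-binding protein that was higher (FSTL3), a BMP ligand that was lower (BMP5) and a latent TGF-beta binding protein that was lower (LTBP3). Each run is the 250 bases before a RefSeq transcript start on GRCh38.p14, 5′ to 3′ on the strand of the gene. Capitals mark a match on either strand. One motif is GGCGCC, known as a GC-rich SMAD element. Another is TATAAA, the TATA box, which reads TTTATA when it lies on the opposite strand.
BMP4: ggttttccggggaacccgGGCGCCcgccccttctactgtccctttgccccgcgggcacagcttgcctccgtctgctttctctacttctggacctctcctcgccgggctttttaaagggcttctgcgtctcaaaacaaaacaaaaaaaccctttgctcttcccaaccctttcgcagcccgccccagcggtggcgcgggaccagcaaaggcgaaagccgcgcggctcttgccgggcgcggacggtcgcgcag
FSTL3: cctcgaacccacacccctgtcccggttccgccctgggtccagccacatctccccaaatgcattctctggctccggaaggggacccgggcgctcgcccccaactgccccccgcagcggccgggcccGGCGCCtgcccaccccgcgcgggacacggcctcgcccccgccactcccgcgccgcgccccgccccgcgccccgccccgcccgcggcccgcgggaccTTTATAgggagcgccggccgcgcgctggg
BMP5: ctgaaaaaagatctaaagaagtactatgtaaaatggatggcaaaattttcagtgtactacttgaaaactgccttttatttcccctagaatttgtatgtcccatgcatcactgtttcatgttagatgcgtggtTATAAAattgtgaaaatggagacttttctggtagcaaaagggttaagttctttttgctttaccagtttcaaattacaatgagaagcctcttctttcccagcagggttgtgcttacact
LTBP3: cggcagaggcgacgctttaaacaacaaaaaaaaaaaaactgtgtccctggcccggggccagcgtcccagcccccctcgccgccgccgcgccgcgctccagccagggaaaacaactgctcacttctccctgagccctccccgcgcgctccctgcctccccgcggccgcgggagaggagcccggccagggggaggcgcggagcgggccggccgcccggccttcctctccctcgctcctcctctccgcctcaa
The BMP4 window (chr14:53955051-53955300, minus strand) holds 1 GGCGCC and is 63.6% G and C. It is 1 of 3 RefSeq starts listed for BMP4, and the windows of the other 2 hold none of the motifs searched. The FSTL3 window (chr19:676142-676391, plus strand) holds 1 GGCGCC and 1 TATAAA on the opposite strand, at 80% G and C. The BMP5 window (chr6:55875591-55875840, minus strand) differs from both in composition, with 1 TATAAA and 35.6% G and C against a median of 58% over 35116 promoters. The LTBP3 window (chr11:65558229-65558478, minus strand), at 71.6% G and C, is 1 of 2 listed for the gene, and neither holds a motif searched. Over both strands, GGCGCC was found in 16.4% of all 35116 promoters, TATAAA in 10.7% and the palindromic SMAD element GTCTAGAC in 0.182%. Of the 55 genes, 47 had an entry in this set of 35116 promoters, with 79 promoters among them. Of these 26.6% held GGCGCC, 13.9% TATAAA and 1 GTCTAGAC. A gene without an entry is missing from the set used here, which does not mean that RefSeq lacks it. Of the genes that passed the test described below, 8 had an entry, and GDF6, BMP7, BMP2 and LEFTY2 had none. Among those 8, GGCGCC lay in a window of BMP4, FSTL3 and LTBP4, and LTBP4 was lower in the knockout. TGFB2 and FST, both higher, held no GGCGCC, so the motif did not divide the genes by direction. Each match describes the letters of these windows, and binding was not measured.

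Sequencing gave 22443904 to 53224112 reads assigned to genes per library, so 3 reads correspond to between 1.91 and 4.53 normalized counts. STK25 itself fell from 8119 ± 1168 normalized counts (SD, n = 3) in wild type to 3719.9 ± 251 in the knockout, which left 45.8% of the transcript (limma log2 fold change -1.12, SE 0.19, adjusted p = 0.00903). STK25 missed the threshold without wild-type replicate 1 (adjusted p = 0.0609). In a principal component analysis the first component, with 55.6% of the variance, separated the genotypes, and the second, with 24.1%, placed wild-type replicate 2 together with knockout replicate 1, away from the rest. The pathway genes followed that second division too: 22 of the 47 tested (46.8%) were lowest within their genotype in both of these libraries and 10 were highest in both (21.3%), against 30.4% and 29.5% of all genes tested.

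Of the 55 genes, 47 reached a mean of 10 normalized counts and were tested, in a fit over 15536 genes with log2(value + 1) as the scale, which understates the change of low genes. With Benjamini-Hochberg adjustment over all genes tested and a threshold of 0.05, 12 of the 47 differed between genotypes (25.5%), against 12.8% of all genes tested. In the knockout 7 were higher (GDF6, BMP4, FST, FSTL3, TGFB2, BMP7 and BMP2) and 5 were lower (LEFTY2, TGFBR3, LTBP3, BMP5 and LTBP4), where the backgrounds were 5.97% and 6.79%. All 12 encode secreted proteins or a coreceptor, and none of the 9 receptor kinases, 8 SMADs and 4 ID factors tested passed. Each of these 3 groups is too small to tell 0 calls from the 12.8% of all genes. An unadjusted limma p under 0.05 was reached by 17 of the 47 and by 4275 of the 15536 genes. The median log2 fold change of the 47 was -0.07, beside 0.01 over all genes, and the median absolute change was 0.63, beside 0.46. Values of 19 of the 47 (40.4%) did not overlap between genotypes, against 33.4% of all genes. When libraries were instead scaled to equal totals, which moved the median of all genes to -0.27, the split was 4 higher and 6 lower (backgrounds 3.53% and 9.38%, or 12.9% in both directions): BMP2, BMP7 and TGFB2 no longer passed and ID1 was added (log2 fold change -0.96, adjusted p = 0.0410). On the recovered reads, edgeR's quasi-likelihood test called 6 higher and 5 lower (backgrounds 5.57% and 6.42%, in all 12%), and DESeq2 called 9 and 6 (backgrounds 10% and 10.7%, in all 20.7%). Without wild-type replicate 2 and knockout replicate 1, a fit chosen after seeing the data, limma called 11 higher and 10 lower, against 14.9% and 14% of all genes, or 28.9% in both directions. The 9 genes added there were ACVR2A, FSTL1, GDF11, ID1, INHBA, LTBP1, SMAD2, SMAD6 and TGFBR2.

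**Figure D1:**
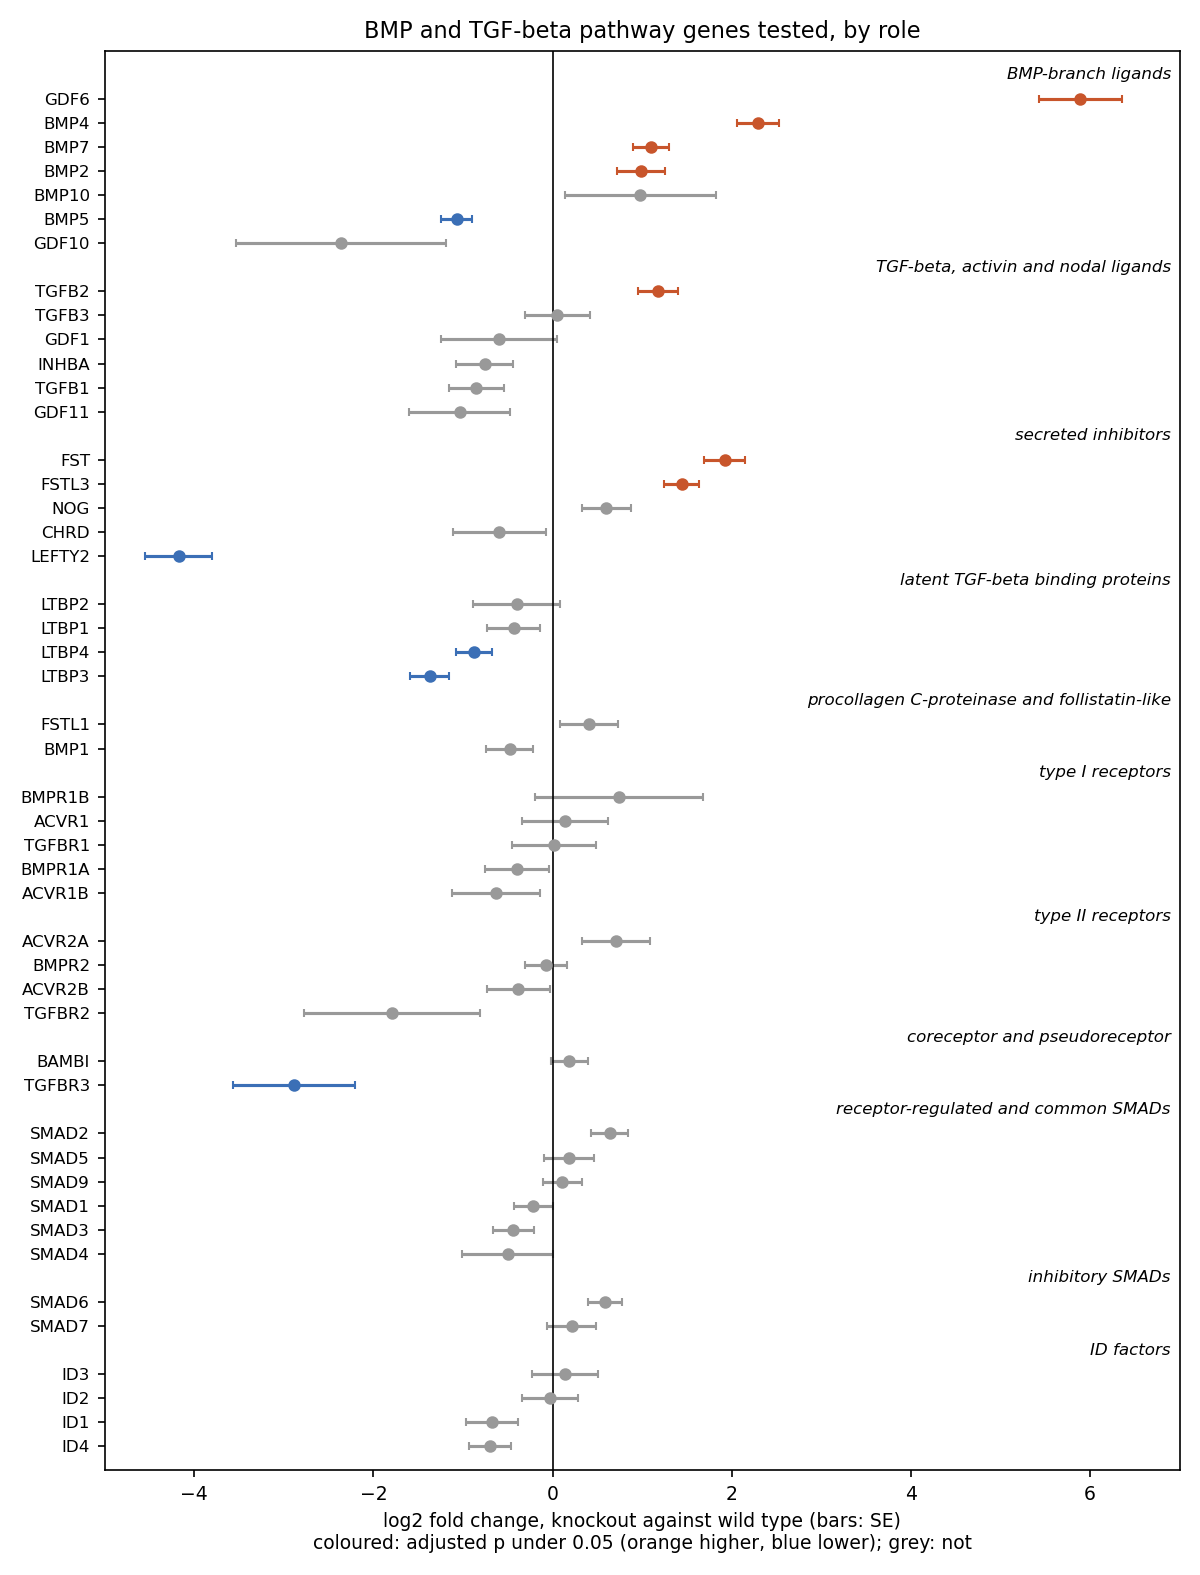
Log2 fold change, knockout minus wild type, on the log2(value + 1) scale for the 47 pathway genes tested, grouped by role, with bars for the standard error from limma (n = 3 per genotype). Points span -4.17 (LEFTY2) to 5.89 (GDF6), and the 12 genes that passed the test lie among ligands, secreted inhibitors, latent TGF-beta binding proteins and TGFBR3.

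Among the BMP-branch ligands, 5 of 7 tested changed (71.4%, against 12.8% of all genes). GDF6, BMP4, BMP7 and BMP2 were higher and BMP5 was lower in the knockout. GDF6 (chr8:96142330-96160792, minus strand), a ligand known for its part in joint and eye development, was at 68.0, 34.3 and 102 normalized counts in wild-type replicates 1 to 3 and at 2278, 5232 and 4396 in knockout replicates 1 to 3. It was low in every wild-type library and abundant in every knockout library. The mean was 58.3-fold higher (limma log2 fold change 5.89, SE 0.46, adjusted p = 0.000387), the widest difference of the 47.

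BMP4 (chr14:53949736-53958761, minus strand), an inducer of mesoderm and cardiac progenitors, held 229.6, 167 and 215 normalized counts in the wild type and 1014, 924 and 1049.6 in the knockout. The knockout libraries lay close together and far above the wild type. This was a 4.89-fold higher mean (limma log2 fold change 2.29, SE 0.23, adjusted p = 0.00113). BMP7 (chr20:57168748-57266629, minus strand), which forms dimers with BMP2 and BMP4, was abundant in both genotypes, at 5293, 4542 and 5982 in wild type and 9592, 12889.9 and 11400.5 in knockout. All 3 knockout libraries exceeded all 3 wild-type libraries, by 2.14-fold in the mean (limma log2 fold change 1.10, SE 0.20, adjusted p = 0.0125). BMP2 (chr20:6767664-6780280, plus strand), known for roles in cardiac induction and valve formation, was at 2909, 2002 and 3336 in the wild type and 4061, 6304 and 5889.5 in the knockout. The groups did not overlap, and the 1.97-fold higher mean passed narrowly (limma log2 fold change 0.99, SE 0.27, adjusted p = 0.0496). BMP2 was also lost with edgeR's quasi-likelihood test (adjusted p = 0.0564) and when any 1 library other than knockout replicate 1 was left out (adjusted p up to 0.166), and BMP7 without wild-type replicate 1 (0.0692) or knockout replicate 3 (0.0617).

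BMP5 (chr6:55753645-55875564, minus strand), a ligand expressed in early heart tissue, moved the other way. It was at 6182, 5582 and 5746 normalized counts in the wild type and 2459.6, 2973 and 2929 in the knockout. The wild-type libraries were uniformly higher, and the mean was 2.09-fold lower in the knockout (limma log2 fold change -1.07, SE 0.17, adjusted p = 0.00789; without wild-type replicate 1, adjusted p = 0.0563). BMP10, a ligand of the trabecular chamber wall, was at 119, 17.5 and 158 in the wild type and 68.6, 202 and 191 in the knockout. Those ranges overlapped, with wild-type replicate 2 far below the rest, and BMP10 did not pass (adjusted p = 0.513). GDF10, an atypical family member, was at 37.8, 30.5 and 42.1 in wild type and 0, 24.5 and 14.2 in knockout: its ranges did not overlap, yet it missed the threshold (adjusted p = 0.242). GDF7 stayed under the mean of 10, and BMP6 had no read in any library.

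Levels were also set side by side per kilobase of each gene's longest transcript, as shares of the summed level of the 9 BMP-branch ligands in the set. Such shares do not depend on the scaling of a library. GDF2, with means per kilobase of 156 in wild type and 120 in the knockout, was left out of this sum. In the wild type BMP5 made up 39.7 ± 4.33% of this sum (SD, n = 3) and BMP7 35.0 ± 1.24%, which are neighbours in the order of levels with libraries that overlap. In the knockout BMP7 made up 42.1 ± 2.43% and BMP5 10.6 ± 0.992%. GDF6 went from 0.475 ± 0.19% to 15.5 ± 3.52% and BMP4 from 2.82 ± 0.2% to 7.96 ± 1.86%. The share of BMP2 was 20.1 ± 2.62% in wild type and 22.3 ± 1.01% in knockout, with overlapping libraries. The order by mean thus ran from BMP5, BMP7 and BMP2 in the wild type to BMP7, BMP2 and GDF6 in the knockout. The summed level per kilobase was 3920.3, 3219.8 and 4128 normalized counts in the wild-type libraries and 5331, 7749 and 7079 in the knockout libraries, without overlap at the deposited scaling. Unlike the shares, this sum depends on the scaling of a library. Knockout replicate 1 had the highest library total, 4.98e+07 normalized counts against 3.39e+07 to 4.17e+07 in the rest. The lack of overlap was not checked at equal totals. These shares were not tested beyond the single genes above.

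**Figure D2:**
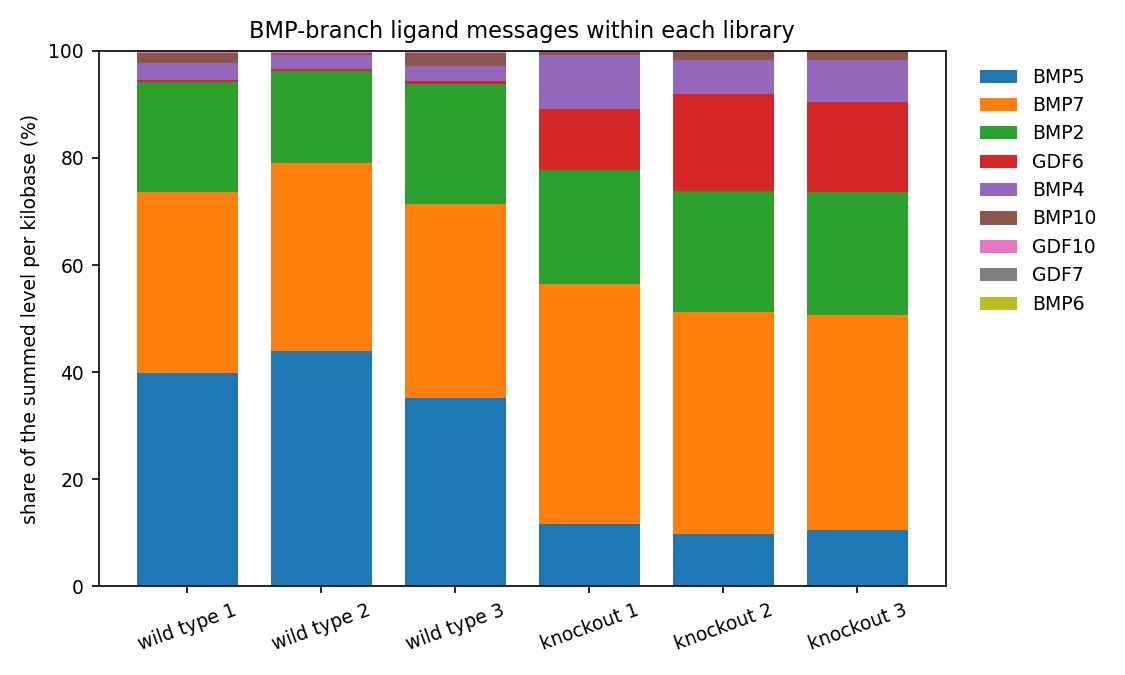
Share, in percent, of the summed level per kilobase of 9 BMP-branch ligands taken by each ligand, 1 stacked bar for each of the 6 libraries. BMP5 fills 35.2% to 43.9% of the wild-type bars and 9.71% to 11.7% of the knockout bars, where GDF6 takes 11.5% to 18.2%.

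Among the TGF-beta, activin and nodal ligands, 1 of 6 tested changed (16.7%), a share near the 12.8% of all genes. TGFB2 (chr1:218346235-218444619, plus strand), the isoform known for its part in valve and outflow tract formation, was at 2240.0, 1568 and 2007 normalized counts in the wild type and 3643, 5345 and 4169 in the knockout. Each knockout library was above each wild-type library. The mean was 2.26-fold higher (limma log2 fold change 1.17, SE 0.23, adjusted p = 0.0149), a call lost without wild-type replicate 3 (adjusted p = 0.0563), knockout replicate 2 (0.0514) or knockout replicate 3 (0.0609). A stretch of TGFB2 holding 25.9% of its 31-base words also belongs to the annotated transcript TGFB2-OT1, so reads there could come from either. No gene of the symbol TGFB2-OT1 was among the genes with deposited values. TGFB1, a broadly expressed isoform, was at 378, 617 and 511 in wild type and 199.6, 302 and 336 in knockout. Its libraries did not overlap, with the knockout lower, but it did not pass (log2 fold change -0.85, adjusted p = 0.119). TGFB3 overlapped between genotypes (adjusted p = 0.951). As shares of the 3 isoforms per kilobase, TGFB2 went from 45.5 ± 5.27% to 69.1 ± 4.39% and TGFB1 from 22.0 ± 7.41% to 8.04 ± 1.66%.

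INHBA, which encodes the activin A subunit, was at 465, 491 and 431 in wild type and 405, 265 and 188 in knockout. The knockout libraries were all lower, without passing the test (adjusted p = 0.171). GDF11, a ligand of the activin branch, held 610.2, 1213 and 403 in wild type and 712, 224 and 216 in knockout, with knockout replicate 1 inside the wild-type range (log2 fold change -1.03, adjusted p = 0.285). GDF1 overlapped between genotypes, and all of its 31-base words also lie in transcripts of CERS1, so its values of 10.7 to 48.3 are uncertain. NODAL, GDF3 and INHBB were under the mean of 10 and not tested. NODAL reached at most 5.10 normalized counts in wild type and had no read in the knockout, and INHBB had reads in 1 knockout library alone.

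Of the secreted inhibitors, 3 of 5 tested changed (60%, against 12.8% of all genes). LEFTY2 (chr1:225936598-225941489, minus strand), an antagonist of nodal in left-right patterning, was at 677, 849 and 640.4 normalized counts in the wild type and 39.4, 59.1 and 24.9 in the knockout. Every wild-type library was far above every knockout library. The mean was 17.6-fold lower (limma log2 fold change -4.17, SE 0.37, adjusted p = 0.000650). Of its 31-base words, 25.7% are shared with its neighbour LEFTY1. LEFTY1 was listed at 10.6, 9.90 and 5.74 in wild type and 25.4, 0 and 0 in knockout, under the mean of 10. The values of LEFTY1 are uncertain too, because 49.1% of its words occur in other genes, 45.9% in AL117348.2. AL117348.2 was listed at 13.6, 0 and 0 in wild type and 0, 14.5 and 0 in knockout. Even with all LEFTY1 counts added to LEFTY2, the highest knockout library would lie far below the lowest wild-type library.

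FST (chr5:53480409-53487134, plus strand), follistatin, which binds activins and some BMPs, was at 254, 339.7 and 269.8 normalized counts in the wild type and 1171, 962 and 1128 in the knockout. The ranges were far apart, with a 3.78-fold higher mean in the knockout (limma log2 fold change 1.92, SE 0.23, adjusted p = 0.00207). FSTL3 (chr19:676365-683399, plus strand), a follistatin-like protein that binds activins and myostatin, was at 1003, 1068 and 1127 in wild type and 2424, 3146 and 3176 in knockout. It was higher in all 3 knockout libraries, by 2.74-fold (limma log2 fold change 1.44, SE 0.19, adjusted p = 0.00341). Per kilobase, FST and FSTL3 together summed to 533 ± 33.1 normalized counts in wild type and 1575 ± 144 in knockout (SD, n = 3). Among BMP antagonists, NOG, which encodes noggin, held 225, 331 and 225 in wild type and 449, 331 and 394 in knockout (adjusted p = 0.210). CHRD, chordin, held 81.6, 110.4 and 119.9 in wild type and 145, 47.9 and 44.4 in knockout (adjusted p = 0.519). The ranges of both overlapped between genotypes and neither passed. GREM1, gremlin, had no read in any library.

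All 4 latent TGF-beta binding proteins had negative fold changes, and 2 passed the test (50%, against 12.8% of all genes). LTBP3 (chr11:65538805-65558930, minus strand), which anchors latent TGF-beta in the matrix, was at 1094, 1169.9 and 996 normalized counts in the wild type and 376, 389 and 499 in the knockout. No knockout library came near the wild type, and the mean was 2.58-fold lower (limma log2 fold change -1.37, SE 0.22, adjusted p = 0.00683). LTBP4 (chr19:40592883-40629818, plus strand), which also takes part in elastic fibre assembly, was at 1503, 1284 and 1333 in wild type and 646, 757 and 849.6 in knockout. The ranges did not overlap and the mean was 1.83-fold lower (limma log2 fold change -0.88, SE 0.20, adjusted p = 0.0289). That call was lost without wild-type replicate 1 or 3 or knockout replicate 2 or 3 (adjusted p up to 0.141). LTBP1, the highest of the family per kilobase, held 5819.7, 3531 and 7172 in wild type and 3526, 4862 and 3483 in knockout, with wild-type replicate 2 at the level of the knockout (log2 fold change -0.43, adjusted p = 0.393). LTBP2 was low and overlapped (adjusted p = 0.660). Summed per kilobase, the family was at 1470.1, 1085 and 1635 in the wild-type libraries and 779, 1015 and 835 in the knockout libraries.

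**Figure D3:**
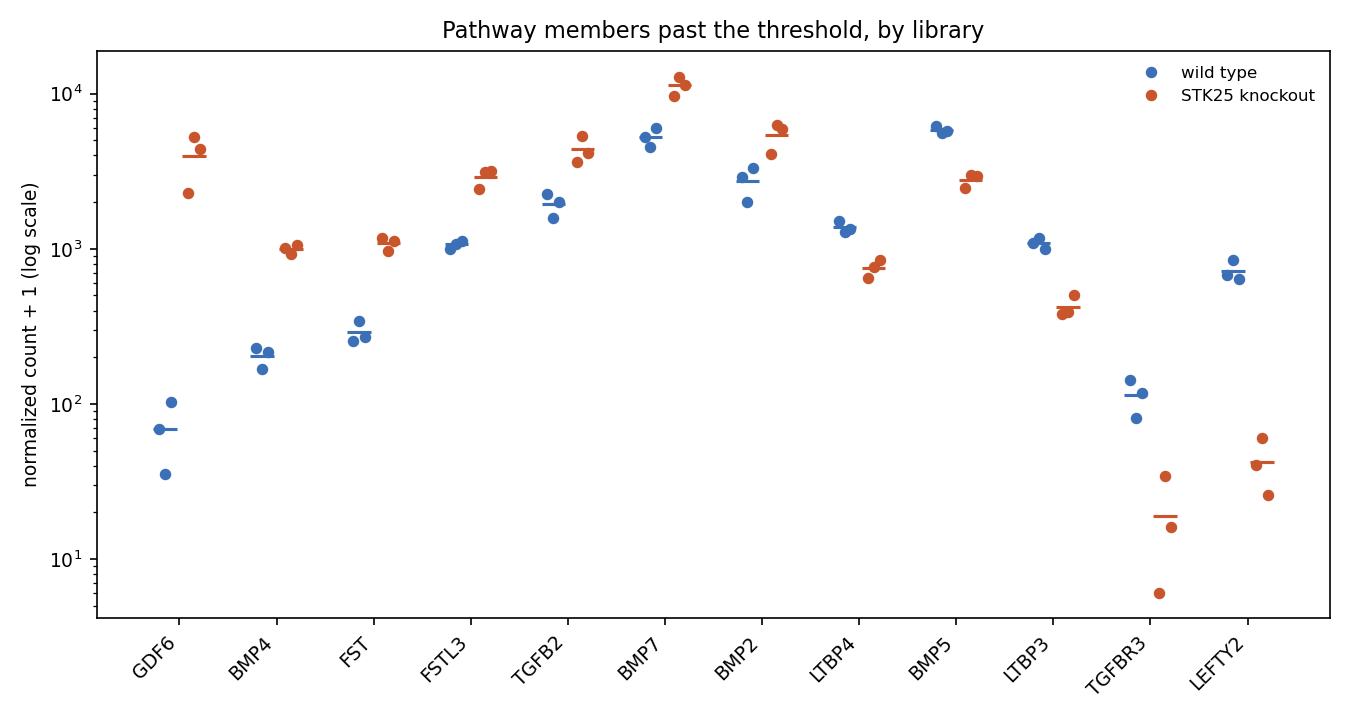
Normalized counts plus 1 on a log axis for the 12 pathway genes that passed the test, 1 dot for each library (3 wild type, 3 knockout). Wild-type and knockout dots do not overlap for any of the 12, with the widest separation for GDF6 and LEFTY2.

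None of the 9 type I and type II receptors tested passed with limma, edgeR or DESeq2, where 12.8%, 12% and 20.7% of all genes were called. An unadjusted limma p under 0.05 was found for 0 of the 9, against 4275 of the 15536 genes tested. With 9 genes, 0 calls cannot be told from the share of all genes. BMPR1A, a type I receptor for BMPs needed in the developing heart, had the highest mean level per kilobase among the type I receptors in wild type. In the knockout its mean was close to that of ACVR1 (144.0 and 141.9 per kilobase). The normalized counts of BMPR1A were 2449.9, 1347 and 2567 in wild type and 995, 2101 and 1766 in knockout. Wild-type replicate 2 lay among the knockout values (log2 fold change -0.40, adjusted p = 0.532), and 19.7% of the 31-base words of BMPR1A occur in other genes. BMPR2, the main BMP type II receptor, held 1012, 803 and 1182 in wild type and 826, 1137 and 882 in knockout, with interleaved libraries (log2 fold change -0.07, adjusted p = 0.890). TGFBR2, the type II receptor for TGF-beta, was at 495, 121 and 511 in wild type and 19.1, 269 and 137 in knockout. Its values spread widely within each genotype, lowest in wild-type replicate 2 and knockout replicate 1, and the log2 fold change of -1.79 had an SE of 0.98 (adjusted p = 0.287). ACVR1, ACVR1B, BMPR1B, TGFBR1, ACVR2A and ACVR2B overlapped between genotypes, with log2 fold changes from -0.63 to 0.74. ACVRL1, a type I receptor of endothelial cells, was under the mean of 10.

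TGFBR3 (chr1:91680343-91906335, minus strand), betaglycan, the coreceptor that presents TGF-beta and binds inhibin, was at 142, 79.98 and 117 normalized counts in the wild type and 5.08, 33.4 and 15.1 in the knockout. The knockout libraries were all lower and the mean fell 6.32-fold (limma log2 fold change -2.89, SE 0.68, adjusted p = 0.0303). The call did not hold when any single wild-type library or knockout replicate 3 was left out (adjusted p up to 0.128). The log2 fold change was -2.24 without knockout replicate 1 and -3.49 without knockout replicate 2. Of the 10 genes made up of the receptors tested and TGFBR3, 7 were lowest within genotype in both wild-type replicate 2 and knockout replicate 1, TGFBR3 among them. BAMBI, a pseudoreceptor that lacks a kinase domain, was abundant in both genotypes, at 18362, 22561 and 16167 in wild type and 22283, 20084 and 22062 in knockout, with overlap (adjusted p = 0.616).

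None of the 8 SMADs passed with limma or edgeR, where 12.8% and 12% of all genes were called. An unadjusted limma p under 0.05 was found for 2, and the same 2 passed with DESeq2 (25%). SMAD2, the mediator of TGF-beta and activin signals, was at 4403, 4160.2 and 4526 normalized counts in the wild type and 5351, 8434 and 6888 in the knockout. The knockout libraries were all above the wild type, but the difference missed the threshold (log2 fold change 0.64, SE 0.21, adjusted p = 0.0941). SMAD6, an inhibitor of BMP signalling, was likewise at 1745, 2001 and 2214 in wild type and 2729, 2832 and 3384 in knockout without overlap (log2 fold change 0.59, adjusted p = 0.0879). Both passed in a DESeq2 fit to the recovered reads (adjusted p = 0.0295 and 0.0279), where 20.7% of all genes were called, and SMAD2 passed with limma without knockout replicate 1 (0.0287). SMAD1, SMAD3, SMAD4, SMAD5, SMAD7 and SMAD9 had log2 fold changes between -0.50 and 0.21, with overlapping libraries. SMAD4, the common partner, ranged from 567 in knockout replicate 1 to 2306 in wild-type replicate 1.

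The ID genes encode inhibitors of helix-loop-helix factors and are classical targets of BMP signalling. None of the 4 passed with limma or edgeR, where 12.8% and 12% of all genes were called, and 1 (ID4) had an unadjusted limma p under 0.05. ID1 was at 2841, 4906 and 2708 normalized counts in wild type and 2709, 1652 and 2069.8 in knockout, with knockout replicate 1 level with the lower wild-type libraries (log2 fold change -0.68, adjusted p = 0.186). ID2 held 10605, 15323 and 9094 in wild type and 16251, 7913 and 10766 in knockout, and ID3 held 5490.5, 12331 and 6172 in wild type and 11703, 5918 and 8008 in knockout. For ID1, ID2 and ID3 the highest library of each genotype was wild-type replicate 2 or knockout replicate 1. ID4 was at 2524, 2296 and 2032 in wild type and 1052, 1551 and 1686 in knockout, without overlap and lower in the knockout, and missed the threshold (log2 fold change -0.70, adjusted p = 0.0954), though it passed with DESeq2 (0.0480).

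Within the ID family, as shares of the summed level per kilobase, ID1 was steady inside each genotype. It made up 17.8, 17.8 and 17.6% in the wild-type libraries and 11.0, 12.6 and 11.9% in the knockout libraries. The wild-type values lay within 1 percentage point of each other and above every knockout value, while the summed level itself varied from 10609.6 to 22323 normalized counts per kilobase, with overlap between genotypes. ID3 made up 39.2 ± 5.17% in wild type and 45.6 ± 1.14% in knockout. ID2 and ID4 overlapped in share. The ID1 share was singled out after its values were seen and was not tested.

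**Figure D4:**
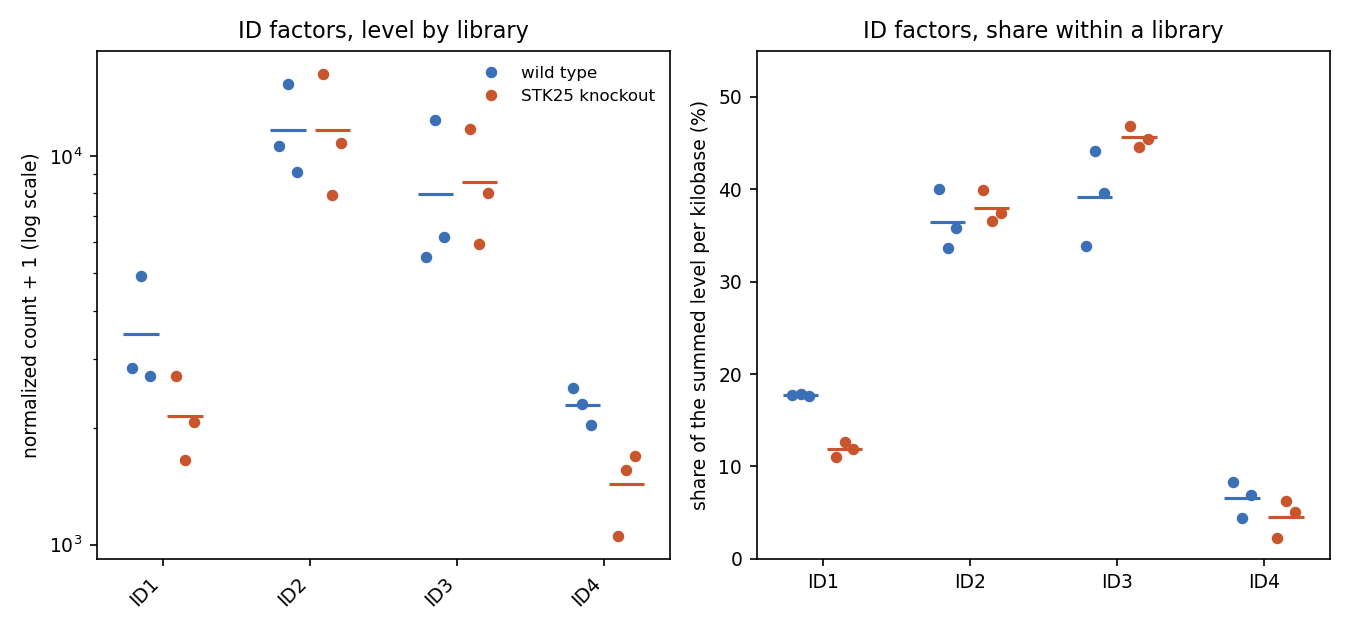
Normalized counts of ID1, ID2, ID3 and ID4 and their shares of the summed level per kilobase, in percent, for each of the 6 libraries. Levels of ID1 to ID3 overlap between genotypes, while the ID1 share is 17.6% to 17.8% in wild type and 11.0% to 12.6% in knockout.

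The remaining 2 genes did not pass with limma, edgeR or DESeq2 (12.8%, 12% and 20.7% of all genes did), and 0 had an unadjusted limma p under 0.05. BMP1, a procollagen C-proteinase that also cleaves chordin and is no BMP ligand, was at 1053, 993 and 1184 in wild type and 545, 887 and 949 in knockout, lower in every knockout library (adjusted p = 0.289). FSTL1, a secreted follistatin-like protein of the heart, was at 12016, 7539.8 and 13308 in wild type and 9514, 18409 and 16088 in knockout, with overlap (log2 fold change 0.41, adjusted p = 0.470).

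A further 55 genes of the same pathways were listed by role, of which 40 were tested and 8 passed (20%, against 12.8% of all genes), 5 higher and 3 lower in the knockout. Their median log2 fold change was -0.05, beside 0.01 over all genes. Of 6 ligands tested, GDF15, a stress-induced family member, was at 1009, 840.1 and 964 normalized counts in wild type and 1.27, 41.2 and 25.8 in knockout. All 3 knockout libraries were far below the wild type (limma log2 fold change -6.09, SE 0.99, adjusted p = 0.00751). The log2 fold change of GDF15 was -4.80 without knockout replicate 1 and -6.91 without knockout replicate 2. Of 12 secreted modulators 4 were higher and 1 was lower (33.3% and 8.33%, against 5.97% and 6.79% of all genes). The higher ones included NBL1, a DAN-family BMP antagonist (log2 fold change 3.00), and FSTL5, a follistatin-like protein (4.19). TLL2, a tolloid-like protease (1.74), and DCN, decorin, a matrix proteoglycan that binds TGF-beta (2.82), were also higher. BMPER, a BMP-binding endothelial regulator, was the lower one, at 1142, 986 and 1486 in wild type and 477, 548 and 545 in knockout (limma log2 fold change -1.18, SE 0.23, adjusted p = 0.0148). NBL1 and FSTL5 share 16.4% and 10.9% of their 31-base words with other genes and are uncertain to that extent.

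Of 6 further receptors and coreceptors, TDGF1, the nodal coreceptor also called Cripto, was at 629.9, 487 and 563 normalized counts in the wild type and 2612, 3965 and 3969.9 in the knockout. All knockout libraries were several times higher (limma log2 fold change 2.63, SE 0.24, adjusted p = 0.000656), although 50.8% of its 31-base words are shared with other genes, mostly TDGF1P3, and the reads could belong to either. AMHR2, the receptor for anti-Müllerian hormone, was at 770.3, 1244 and 557 in wild type and 252, 90.3 and 108 in knockout, lower in each knockout library (limma log2 fold change -2.58, SE 0.46, adjusted p = 0.0112). None of the 16 intracellular regulators tested passed with limma or edgeR, where 12.8% and 12% of all genes were called. An unadjusted limma p under 0.05 was found for 3. DESeq2 called 2 (12.5%, NEDD4L and SMURF2, named after their values were seen), below its 20.7% over all genes. The list holds the SMURF ubiquitin ligases and the corepressors SKI and SKIL, among others. With 1 library left out, calls were lost for BMPER (wild-type replicate 1 or 3, knockout replicate 3), DCN and TLL2 (wild-type replicate 1 or 3, knockout replicate 2 or 3) and AMHR2 (wild-type replicate 1, knockout replicate 3). Their adjusted p then reached 0.0715 for BMPER, 0.112 for DCN, 0.0736 for TLL2 and 0.0527 for AMHR2. The log2 fold change was 2.23 for DCN without wild-type replicate 3 and 3.58 for FSTL5 without wild-type replicate 1.

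Genes known to respond to the ligands were listed too, and those that passed moved in both directions. Of 10 BMP response genes tested, HAMP, hepcidin, and HEY1, a repressor shared with the Notch pathway, were lower (20%, where 6.79% of all genes were lower), and the median log2 fold change of the list was 0.03. HAMP was at 148, 470.0 and 190.1 normalized counts in the wild type and 22.9, 8.92 and 9.78 in the knockout (limma log2 fold change -4.12, SE 0.59, adjusted p = 0.00425). HEY1 was at 4296, 4862 and 3909.7 in wild type and 639, 1033 and 1319.7 in knockout (limma log2 fold change -2.18, SE 0.28, adjusted p = 0.00295). Of 16 TGF-beta response genes, 4 were higher and 2 were lower (25% and 12.5%, against 5.97% and 6.79% of all genes), with a median of 0.28. CCN2, a matricellular growth factor, was at 7401, 5480.2 and 7303 in wild type and 26967, 46067 and 39025 in knockout (limma log2 fold change 2.45, SE 0.26, adjusted p = 0.00126). COL3A1, TAGLN and ACTA2 were also higher, with log2 fold changes of 2.61, 2.21 and 2.98. TAGLN and ACTA2 are also smooth muscle markers, and 31.5% of the 31-base words of ACTA2 occur in other genes. COL3A1 was lost without wild-type replicate 1, knockout replicate 2 or knockout replicate 3 (adjusted p up to 0.0723). The lower ones were COL1A2, a chain of type I collagen, at 9072, 4237 and 9232 in wild type and 132, 376 and 212 in knockout (limma log2 fold change -5.01, SE 0.44, adjusted p = 0.000616), and CDKN1A, a cell cycle inhibitor also controlled by p53, at 21874, 21721 and 24553 in wild type and 985, 1403 and 1302 in knockout (limma log2 fold change -4.22, SE 0.20, adjusted p = 6.44e-05). The collagen genes COL3A1 and COL1A2 thus moved in opposite directions.

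**Figure D5:**
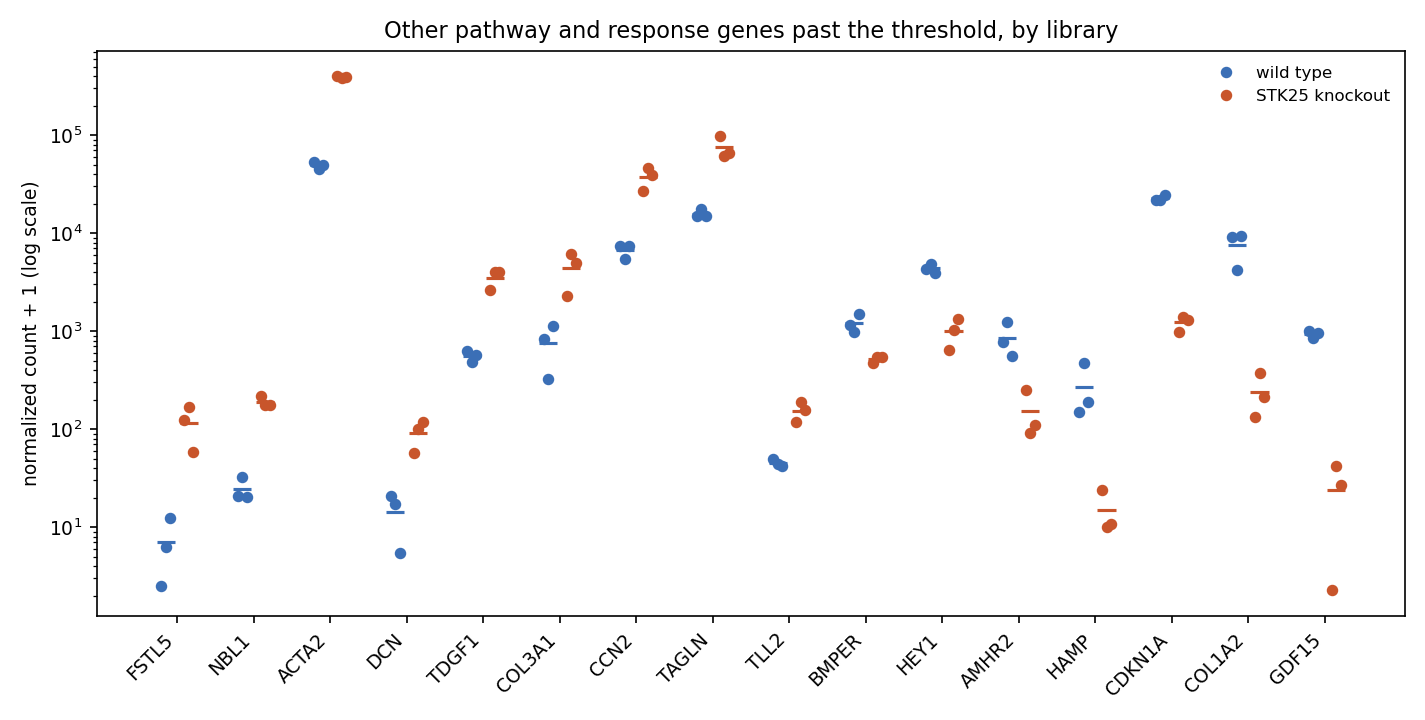
Normalized counts plus 1 on a log axis for the 16 further pathway and response genes that passed the test, 1 dot for each library (3 wild type, 3 knockout). Of the 16, 9 lie higher and 7 lower in the knockout, with GDF15 and COL1A2 among the lowest relative to wild type.

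Markers of cell types moved with genotype as well, and in bulk RNA fewer cells of a type and less RNA per cell cannot be told apart. Cardiomyocyte markers such as TNNT2 were abundant in all 6 libraries, and 3 of 12 were lower in the knockout (NKX2-5, PLN and NPPA), against 12.8% of all genes called either way. The 12 had 6 positive and 6 negative log2 fold changes, with overlapping sums of 1473049 to 1882897 in wild type and 1875714 to 3416563 in knockout. TNNI3, ACTN2, MYH7, MYL7 and TTN were above the wild type in every knockout library, with log2 fold changes of 0.66 to 1.42. They missed the threshold with limma and passed with DESeq2. MYH6 went the other way, below the wild type in every knockout library (limma log2 fold change -1.14, adjusted p = 0.0531), and was called lower by edgeR and DESeq2. In all, edgeR called 4 of the 12, all lower, and DESeq2 called 9. All 5 ventricular markers were lower, their summed level going from between 43224 and 47741 normalized counts in wild type to between 3083 and 3710 in knockout. Of 7 smooth muscle markers 4 were higher (MYH11, CNN1, TAGLN and ACTA2), or 57.1% against 5.97% of all genes. ACTA2 and TAGLN stand in both this list and the TGF-beta response list. The sums of 86412 to 98052 against 495435 to 546537 were mostly ACTA2, and without ACTA2 and TAGLN they were 23211 to 31316 against 51155 to 59508. MYOCD had a log2 fold change of -0.63 without overlap, missed the threshold with limma (adjusted p = 0.107) and was called lower by DESeq2. Of 10 fibroblast markers 4 were higher (COL3A1, DCN, TCF21 and THY1) and 1 lower (COL1A2), or 40% and 10% against 5.97% and 6.79% of all genes. DESeq2 called 7 of them (70%, against 20.7% of all genes), and log2 fold changes were positive for 7 and negative for 3. Their sums overlapped, at 13009 to 26554 and 8515 to 16927, but in wild type these were mostly COL1A1 and COL1A2 and say little of the other markers. COL1A1, COL1A2, COL3A1, POSTN and DCN are shared with the lists above. Epicardial markers had 2 of 7 higher (28.6%), with sums of 279 to 351 against 1150.4 to 1306. Neural markers had 3 of 5 higher (60%), with sums of 63.2 to 131 against 460.4 to 836. Of all genes, 5.97% were higher. Of 11 atrial and nodal markers 2 were higher and 4 lower (18.2% and 36.4%, against 5.97% and 6.79% of all genes). DESeq2 called all 11 (54.5% higher and 45.5% lower, against 10% and 10.7%). Of 6 endoderm markers 1 was lower (16.7%, near the 12.8% of all genes called either way), and DESeq2 called 2 (33.3%). None of 6 pluripotency markers passed with limma (3 had an unadjusted p under 0.05, edgeR called 0 and DESeq2 1, ZFP42, or 16.7%). None of 5 endothelial markers tested passed with limma, edgeR or DESeq2 (0 had an unadjusted limma p under 0.05). These 5 were PECAM1, KDR, TEK, FLI1 and EGFL7, with up to 91, 536, 160, 55 and 1598 reads in a library. Of the listed markers not tested, CDH5, TIE1 and ERG had at most 2 reads in any library and VWF at most 5. The part of cell composition in the values of the pathway genes was not tested.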

How the data were processed

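Bulk RNA-seq values came from a table of normalized counts that the authors deposited, a scaled signal in which every value was a whole multiple of 1 step per library (100% of values within a tolerance of 0.01), so whole reads were recovered. The submitters' processing notes name bcl2fastq 2.19, kallisto 0.44.0, DESeq2 1.28.1 and GRCh38. The table was analysed as log2(value + 1) with limma 3.58.1 (lmFit, eBayes with trend; R 4.3.3): 15536 genes with a mean of at least 10 over 6 libraries, genotype as the 1 factor, Benjamini-Hochberg adjustment, threshold 0.05. Alternatives were edgeR 4.0.16 (quasi-likelihood) and DESeq2 1.42.0 on recovered reads, other scalings, filters and pseudocounts, a replicate block, and leaving out each library. Replicate libraries differed beyond counting error (chi-square divided by degrees of freedom, 18.9 to 363). Of 35793 genes, 11622 had no read. Named genes were those with an adjusted p under 0.05, the most abundant of each role and those with large differences that did not pass. The genes and lists were chosen with earlier results of these data known. Gene bounds came from GENCODE 29, promoters from RefSeq.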

Additional observations from a re-analysis of the deposited data

How the results depend on the processing

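Of the 12 genes that passed, GDF6, BMP4, LEFTY2, FST and FSTL3 passed under all 19 alternatives, and none of the 12 reversed: of 228 values, 193 stayed past the threshold and 35 did not. The count of genes higher in the knockout (7) was 4 with equal totals, 4 with a replicate block, 11 without wild-type replicate 2 and knockout replicate 1 together (chosen after seeing the data) and 4 to 8 with 1 library left out. The count lower (5) was 1 with the replicate block, 10 over those 4 libraries and 2 to 6 with 1 library left out. Over all genes, 1982 calls became 798 with the replicate block, 3210 with DESeq2, 4483 over the 4 libraries and 796 to 2181 with 1 library left out. Replicate numbers did not pair the libraries: same-numbered deviations correlated at -0.23, -0.40 and 0.17, and not every library correlated best with its own number. BAMBI reversed with equal totals (-0.10) and quantile normalization (-0.10), and ID3 likewise (-0.15 and -0.049). With 1 library left out, log2 fold changes ran from -0.22 to 0.060 for BMPR2, -0.30 to 0.22 for ID2 and -0.12 to 0.50 for ID3. The cause was not tested. Where 1 arm kept 2 libraries, spread was pooled over both. At the lowest depth, values under 4.53 normalized counts rest on 3 reads or fewer.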
